A study of Mus musculus with 12 samples.

Results

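The immunoglobulin kappa variable (Igkv) segments were taken as every row of the deposited tables with a gene symbol that starts with Igkv. The rule found 163 rows, which carried 158 symbols of the 43622 named items, and 5 symbols with 2 rows each (Igkv2-137, Igkv19-93, Igkv4-73, Igkv4-56 and Igkv12-47) were summed. A symbol is called an item here. RNA sequencing covered sorted splenic B cells of female mice aged 6 months on the C57BL/6 background, in 4 groups of 3 libraries. All 12 libraries came from mice with the lupus susceptibility interval Sle1b. The genotype B6.Sle1b had no other labelled change, and the genotype B6.Sle1b.IFNaR1-/- is labelled as lacking Ifnar1, which encodes a subunit of the receptor for type I interferons. Libraries of the latter genotype are called libraries labelled Ifnar1KO. From each genotype, the sort gave germinal centre (GC) B cells, which carried B220, GL7 and CD95, and non-germinal centre (non-GC) B cells, which carried B220 without GL7 or CD95. No treatment is named in the labels. Nothing in them says whether separate animals gave the libraries of a group, so p-values measure only how these samples vary, and that variation may be technical.

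A kappa light chain is encoded by a V segment joined to a J segment, followed by the constant exon Igkc. Each B cell as a rule keeps a single productive light chain rearrangement, so a library made from many B cells holds a mixture of V segments, and the share of each segment describes its usage. In germinal centres, B cells that bind antigen divide into clones and mutate their V segments. Segments of the large Igkv array lie in either orientation relative to Igkj and Igkc.

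Of the 158 items, 156 had an entry in GENCODE M21 (build GRCm38), 98 as functional V genes and 58 as V pseudogenes. Igkv8-23-1 and Igkv13-89-1 were matched to no entry. The items lay on chromosome 6 between 67532489 and 70704177, with 74 on the plus strand and 82 on the minus strand, and the Igkj segments and Igkc (70726435 to 70726966) follow the last of them on the plus strand. They belonged to 20 sequence families, the largest of which were Igkv4 with 31 items and Igkv13 with 18. A total of 41 items was listed at 0 in all 12 libraries, of which 37 were pseudogenes and 3 were functional genes (Igkv1-131, Igkv20-101-2 and Igkv1-35). The other 117 items had a value above 0 in at least 1 library, and 89 reached the level filter of at least 1 FPKM (fragment density scaled to transcript length and library size) in at least 3 libraries.

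Sequence similarity limits how well the items can be told apart. Of the 98 functional items, 43 had another functional item with at least 95% identity over the coding sequence, and the median identity to the closest functional relative was 93.8%. The germline coding sequences of 10 items are shown because the results turn on them: 8 were the largest item of at least 1 library, Igkv1-117 is the closest relative of Igkv1-110, and Igkv1-135 was lower in GC in every pair. Each line gives the last 90 coding bases, 5′ to 3′, from the GENCODE M21 transcripts, and capitals mark the germline start of complementarity determining region 3, from the last in-frame cysteine codon to the end of the segment.
Igkv17-127: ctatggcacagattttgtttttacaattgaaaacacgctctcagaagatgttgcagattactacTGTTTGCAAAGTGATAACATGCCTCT
Igkv17-121: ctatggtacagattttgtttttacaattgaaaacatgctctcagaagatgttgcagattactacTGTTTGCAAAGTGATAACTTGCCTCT
Igkv1-110: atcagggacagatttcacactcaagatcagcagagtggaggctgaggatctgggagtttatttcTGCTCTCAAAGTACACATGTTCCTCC
Igkv1-117: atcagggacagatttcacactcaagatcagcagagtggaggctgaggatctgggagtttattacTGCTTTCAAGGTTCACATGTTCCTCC
Igkv1-135: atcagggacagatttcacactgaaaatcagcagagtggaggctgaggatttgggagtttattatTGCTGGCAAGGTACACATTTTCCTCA
Igkv16-104: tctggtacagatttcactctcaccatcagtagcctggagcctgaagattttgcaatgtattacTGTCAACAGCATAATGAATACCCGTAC
Igkv3-4: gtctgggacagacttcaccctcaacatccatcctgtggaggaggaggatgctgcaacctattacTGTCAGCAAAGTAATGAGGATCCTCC
Igkv3-10: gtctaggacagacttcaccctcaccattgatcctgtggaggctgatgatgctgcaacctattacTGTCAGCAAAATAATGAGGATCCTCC
Igkv8-19: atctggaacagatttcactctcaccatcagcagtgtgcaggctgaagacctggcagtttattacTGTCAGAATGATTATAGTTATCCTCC
Igkv4-50: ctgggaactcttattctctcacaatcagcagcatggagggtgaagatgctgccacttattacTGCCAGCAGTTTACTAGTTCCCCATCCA

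Igkv17-127 (chromosome 6, 67861153 to 67861659, plus strand) and Igkv17-121 (68036812 to 68037318, plus strand) were 97.5% identical over 353 coding bases, with a longest identical run of 143 bases. Igkv1-110 (68270485 to 68271267) and Igkv1-117 (68121046 to 68121827), both on the plus strand, were 97.2% identical, with a longest identical run of 142 bases. Igkv3-10 (70572633 to 70573230, plus strand) was 98.3% identical to Igkv3-5. Igkv1-135 (67609713 to 67610508) and Igkv3-4 (70671788 to 70672377) also lay on the plus strand, and Igkv8-19 (70340876 to 70341453) and Igkv4-50 (69700767 to 69701287) on the minus strand. Igkv16-104 (68425575 to 68426072, plus strand) stood alone among the segments shown, since its closest relative, Igkv11-125, shared 74.1% of bases and at most 23 in a row. Other segments also lacked a close relative, such as Igkv15-103 and Igkv19-93 with at most 77.0% and 77.5% identity. Reads that fall within an identical run cannot be assigned to 1 member of a close pair, so the split within the pair is less certain than the sum. This holds for Igkv17-127 and Igkv17-121, for Igkv1-110 and Igkv1-117, and for Igkv3-10 and Igkv3-5, whose longest identical run was 159 bases.

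The sort labels were set against marker transcripts. Of 8 GC B cell markers, all were above 0 in the GC libraries of batches 1 and 2, which summed to between 299 and 972 FPKM, and the non-GC libraries of the same batches to between 52.5 and 89.7 FPKM. In batch 3 the sum was 18.7 to 20.8 FPKM in GC and 19.2 to 20.7 FPKM in non-GC libraries, so these markers did not separate the cell types there. Batch 3 also had 104048 to 208065 unnamed rows above 0, against 10129 to 61655 in batches 1 and 2, and B cell markers summed to 15.8 to 22.02 FPKM in its GC libraries, against 1072 to 1878 FPKM in those of batches 1 and 2. Ifnar1, the targeted gene, was not lower in the libraries labelled Ifnar1KO of batches 1 and 2. In batch 1 its level was 51.1 FPKM in non-GC and 14.1 FPKM in GC cells labelled Ifnar1KO, against 14.5 and 8.11 FPKM in Sle1b. In batch 2 the same 4 values were 69.1, 15.4, 36.1 and 9.89 FPKM, and in batch 3 they were 2.58, 0, 3.45 and 6.80 FPKM. Every direction between genotypes given here therefore rests on the labels.

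Germinal centre libraries held less Igkv transcript than non-GC libraries of the same batch and genotype, and fewer segments made up most of it. The summed Igkv level of Sle1b non-GC libraries 1, 2 and 3 was 1810, 991 and 332 FPKM, and that of Sle1b GC libraries 1, 2 and 3 was 1094, 550 and 54.7 FPKM. In the libraries labelled Ifnar1KO it was 2541, 790 and 207 FPKM in non-GC and 771, 330 and 39.4 FPKM in GC cells. The GC library was the lower one in 6 of 6 pairs, although the groups overlapped across batches. On the log2(FPKM + 1) scale the sum was lower in GC cells by a mean of -1.58 (SD 0.78, n = 6 pairs; two-sided exact permutation p = 0.03125, the smallest 6 pairs can give; 0.0417 after Benjamini-Hochberg adjustment over 4 measures). The 6 pairs come from 3 batches, so the pairs of 1 batch are not independent in a technical sense. Without batch 3 the mean difference was -1.14 over 4 pairs, for which the smallest possible p is 0.125. The sum of 6 B cell markers was also lower in the GC library of 6 of 6 pairs, but its members differed. In batch 1 the sum went from 1856 to 1359 FPKM in Sle1b and from 2032 to 1072 FPKM in libraries labelled Ifnar1KO. In batch 2 the same values were 2010 to 1878 and 1910 to 1845 FPKM. In batch 3 they were 153 to 15.8 and 142 to 22.02 FPKM. Only 2 of the 6 markers, Cd79a and Cd79b, were lower in GC in all 4 pairs of batches 1 and 2, and 0 were higher. The same count over all items was not made. The part of these markers in the Igkv difference was not tested. The reference gene Actb had 682, 650 and 120 FPKM in Sle1b non-GC and 739, 379 and 5.78 FPKM in Sle1b GC. With the label Ifnar1KO it had 667, 526 and 110 FPKM in non-GC and 716, 287 and 11.5 FPKM in GC cells. Actb was thus higher in GC in batch 1 and lower in batches 2 and 3. The drop in the Igkv sum is therefore not shown to be particular to Igkv in batches 2 and 3. In bulk samples, fewer cells with kappa transcripts and less kappa RNA per cell cannot be told apart, and other causes of a lower Igkv sum were not tested. Igkc was not lower in GC in Sle1b batch 1, with 3145 FPKM against 3047 FPKM in non-GC cells.

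**Figure D1:**
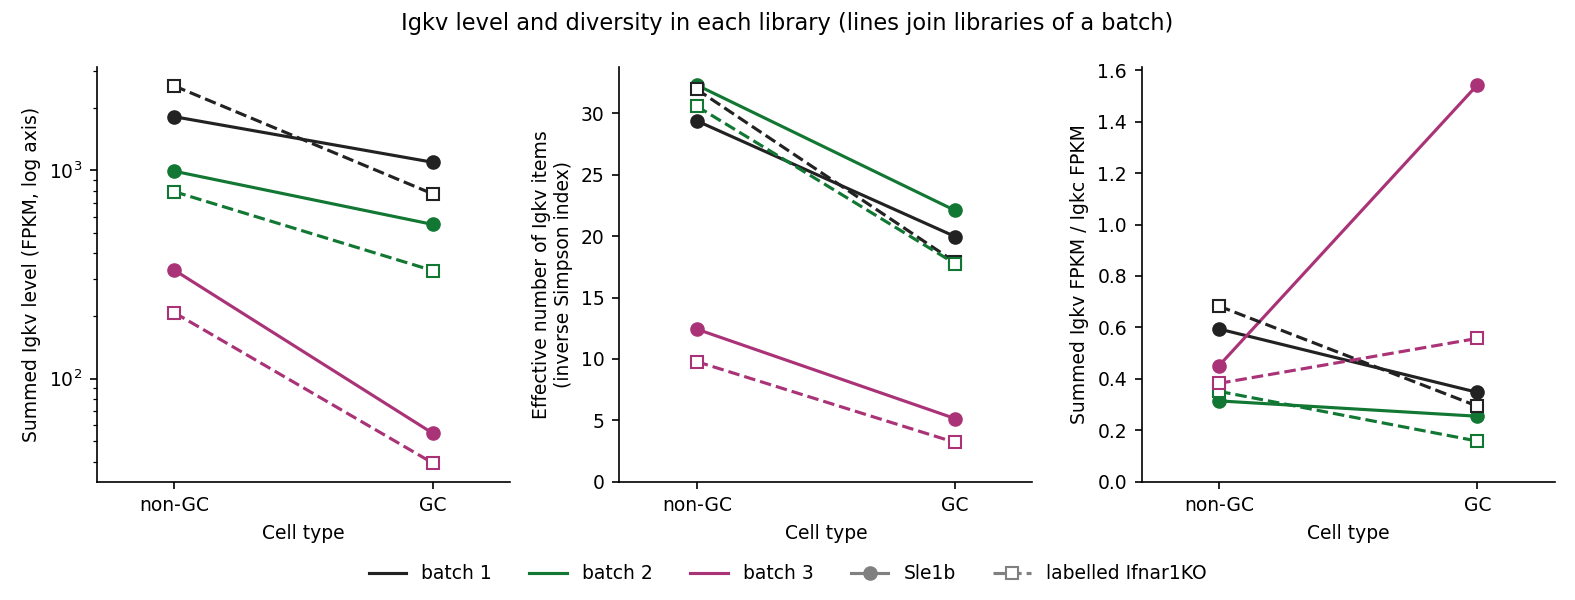
Summed Igkv FPKM on a log axis (left), the effective number of Igkv items (middle) and summed Igkv FPKM divided by Igkc FPKM (right) in each of 12 libraries, with lines joining the non-GC and GC library of 1 batch and genotype. Both left panels slope down in 6 of 6 pairs, whereas the ratio to Igkc falls in the 4 pairs of batches 1 and 2 and rises in the 2 pairs of batch 3.

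The constant exon was compared beside the V segments. Igkc was listed at 3047, 3149 and 734 FPKM in Sle1b non-GC, 3145, 2158 and 35.5 FPKM in Sle1b GC, 3722, 2247 and 541 FPKM in non-GC labelled Ifnar1KO, and 2622, 2086 and 70.6 FPKM in GC labelled Ifnar1KO. It was similar or lower in GC libraries of batches 1 and 2 and far lower in those of batch 3, and did not pass the test across genes in either genotype (limma log2 difference -1.61, SE 0.95, adjusted p = 0.623 in Sle1b; -1.18, SE 0.95, adjusted p = 0.609 in libraries labelled Ifnar1KO). The ratio of summed Igkv FPKM to Igkc FPKM was 0.594 and 0.315 in Sle1b non-GC libraries 1 and 2 and 0.348 and 0.255 in the matching GC libraries. In libraries labelled Ifnar1KO it was 0.683 and 0.352 in non-GC and 0.294 and 0.158 in GC cells. In batch 3 it went the other way, from 0.452 to 1.54 in Sle1b and from 0.383 to 0.558 in those labelled Ifnar1KO. Over all 6 pairs the log2 ratio differed by -0.19 (SD 1.16; exact permutation p = 0.719), so the ratio is not shown to differ.

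Diversity was measured as the effective number of items, the inverse Simpson index of the shares, which is the number of equally used items that would give the same evenness. It was 29.4, 32.3 and 12.4 in Sle1b non-GC libraries 1, 2 and 3 and 19.97, 22.1 and 5.15 in Sle1b GC. With the label Ifnar1KO it was 31.9, 30.6 and 9.79 in non-GC and 17.9, 17.8 and 3.21 in GC cells. Within batches 1 and 2 all 4 non-GC libraries lay above all 4 GC libraries, and batch 3 was lower in both cell types. The mean difference was -10.1 items (SD 2.96, lower in GC in 6 of 6 pairs; exact permutation p = 0.03125, adjusted 0.0417 over 4 measures) and -11.6 without batch 3. With FPKM weighted by locus length it was -2.56 (exact permutation p = 0.281) and did not pass. The exponential of the Shannon entropy, which weighs rare items more, ran from 42.5 to 47.8 in the 4 non-GC libraries and from 24.4 to 31.96 in the 4 GC libraries of batches 1 and 2.

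Depth on the segments moved with the cell type. The number of reads on Igkv items, estimated from what 1 read is worth in FPKM, was 2456, 1092 and 319 in Sle1b non-GC and 780, 529 and 34.9 in Sle1b GC, and 4324, 674 and 188 in non-GC and 701, 162 and 47.8 in GC labelled Ifnar1KO. It was lower in the GC library of all 6 pairs. With the Simpson index corrected for the number of reads, the effective number was lower in GC by 9.21 (SD 2.03, 6 of 6 pairs), from 29.4 to 31.3 in the non-GC libraries and from 18.9 to 22.4 in the GC libraries of batches 1 and 2. In a draw of 33 reads, 21.6 to 22.2 items are expected in those 4 non-GC libraries and 17.7 to 19.5 in the 4 GC libraries. Batch 3 gave 13.8 and 11.4 items in non-GC and 8 and 4.57 in GC cells by the same draw. Both values treat the estimated reads as independent and cover counting error only, since reads of amplified cDNA are not independent molecules. The part of depth in the lower diversity was not tested further.

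The leading segments took more of the total in GC cells. The largest share was 9.69%, 8.88% and 16.0% in Sle1b non-GC libraries 1, 2 and 3 and 11.5%, 9.32% and 29.7% in Sle1b GC. In libraries labelled Ifnar1KO it was 7.21%, 7.86% and 15.7% in non-GC and 11.6%, 14.8% and 38.4% in GC cells. The GC value was higher in 6 of 6 pairs, by 8.31 percentage points on average (SD 8.44; exact permutation p = 0.03125, adjusted 0.0417), but by 3.37 points without batch 3 and by 2.51 points with FPKM weighted by locus length (exact permutation p = 0.625). The 5 most used items together held 29.4% to 30.2% in the 4 non-GC libraries of batches 1 and 2 and 39.6% to 43.7% in the 4 GC libraries. In batches 1 and 2 it took 11 to 12 items to reach 50% of the Igkv total in non-GC cells and 7 to 8 in GC cells.

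**Figure D2:**
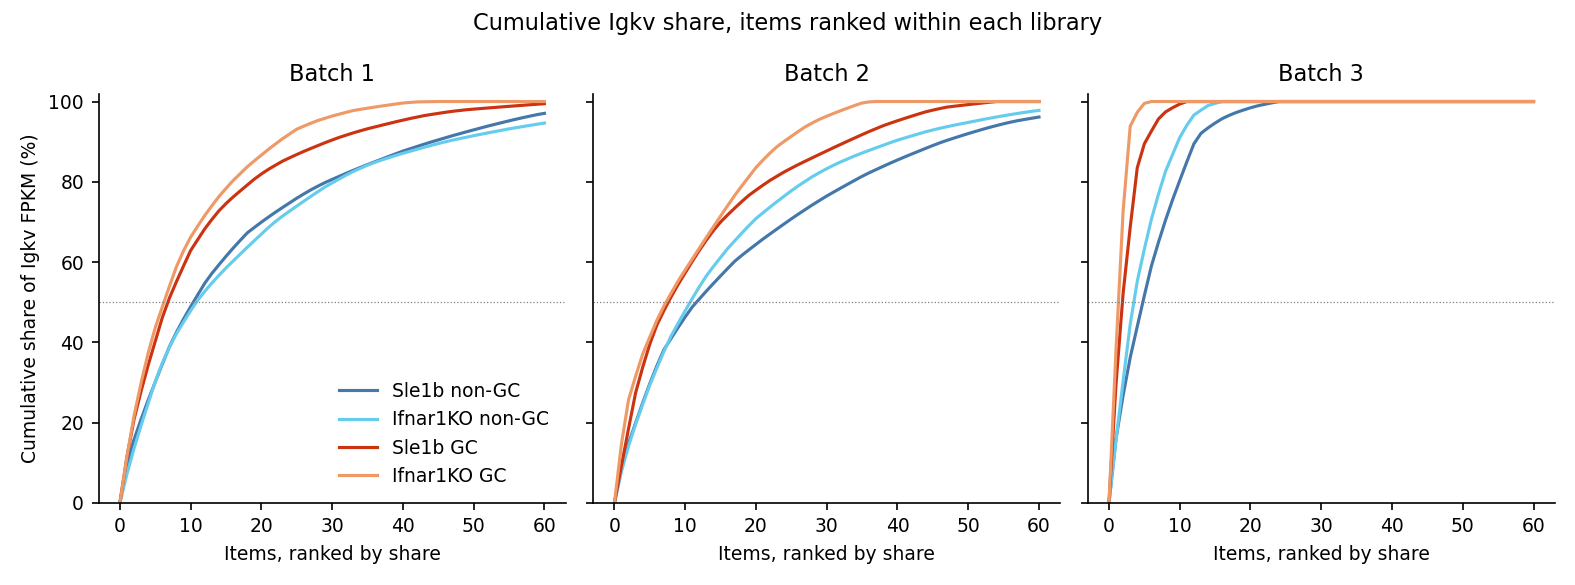
Cumulative share of summed Igkv FPKM (y axis, %) against items ranked by share within each library (x axis), in 1 panel for each batch; the dotted line marks 50%. In batches 1 and 2 the GC curves reach 50% after 7 to 8 items and the non-GC curves after 11 to 12, and in batch 3 they do so after 2 and after 4 to 5.

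Igkv17-127 was the largest item in 3 of the 4 non-GC libraries of batches 1 and 2, and Igkv1-110 in the other one. Igkv17-127, a family 17 segment far from the J segments, held 9.69% and 8.88% in Sle1b non-GC libraries 1 and 2 and 7.21% and 6.32% in those labelled Ifnar1KO. In the GC libraries it ranged further, from 7.05% and 3.37% in Sle1b to 11.6% and 2.59% in those labelled Ifnar1KO. In non-GC cells Igkv1-110 held 4.52% and 6.01% in Sle1b and 5.5% and 7.86% in libraries labelled Ifnar1KO. In GC cells it held 11.5% and 4.73% in Sle1b, where it led library 1, and 1.71% and 1.60% in libraries labelled Ifnar1KO. Its close relative Igkv1-117 varied less, between 4.46% and 5.75% in the 4 non-GC and between 2.63% and 5.95% in the 4 GC libraries.

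Igkv16-104, a segment without a close relative, spread most among GC libraries. It held 3.65% and 4.42% in Sle1b non-GC libraries 1 and 2, and 2.61% and 3.79% in those labelled Ifnar1KO. In GC cells it held 5.92% and 0.90% in Sle1b and 10.1% and 14.8% in libraries labelled Ifnar1KO, where it was the largest item of library 2. The GC values lay on both sides of the non-GC values. Igkv17-121 led Sle1b GC library 2 with 9.32% and held 0.47% in GC library 1 labelled Ifnar1KO, against 3.04% to 6.07% in the 4 non-GC libraries. Igkv3-4, the fourth item from the J segments, held 10.97% in GC library 2 labelled Ifnar1KO and 0.20% in Sle1b GC library 2. Igkv3-1, which reached 8.93% in Sle1b GC library 2, held at most 1.76% in the other 7 libraries of batches 1 and 2.

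**Figure D3:**
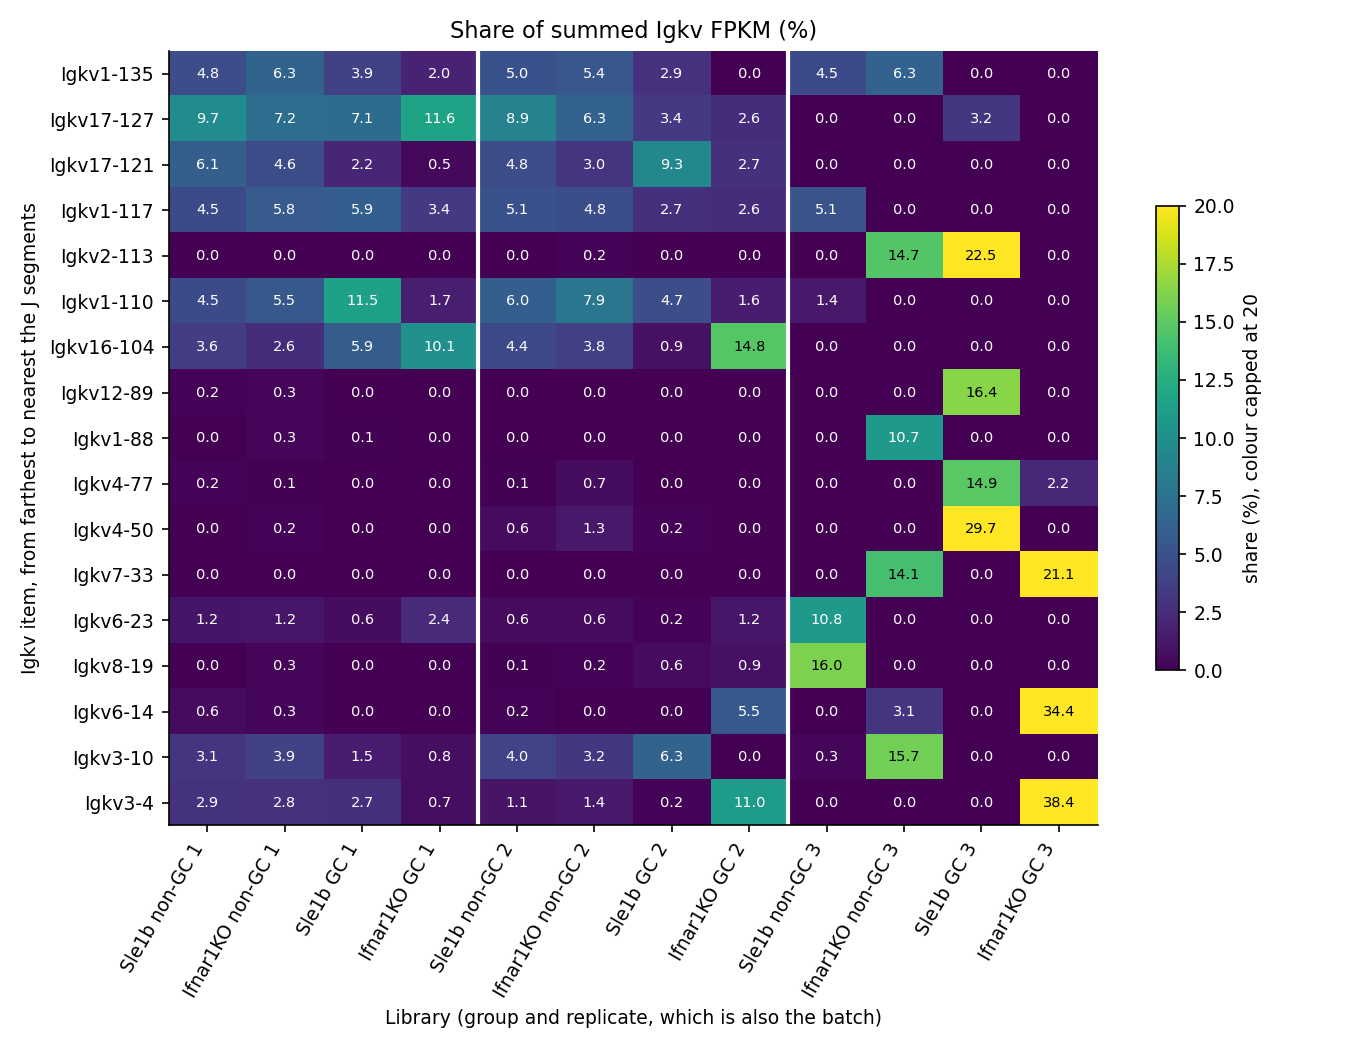
Share of summed Igkv FPKM (%, printed in each cell) of the 17 items named for their share, ordered from farthest to nearest the J segments, in 12 libraries grouped by batch. The non-GC columns of batches 1 and 2 resemble each other, the GC columns peak at different items, and in batch 3 each library peaks at another item, Igkv8-19 and Igkv4-50 with at most 1.33% in the other batches and Igkv3-4 and Igkv3-10 with up to 10.97%.

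This pattern held across the most used items. In the 8 libraries of batches 1 and 2, 31 items had a mean share of at least 1% and together 77.1% of the Igkv total; 30 were functional genes and 1, Igkv1-108, a pseudogene. Their shares covered a median range of 1.62 percentage points over the 4 non-GC libraries and 4.22 points over the 4 GC libraries, and the range was wider in GC cells for 29 of the 31. At least 1 GC library listed the item at 0 for 17 of them, against 1 item (Igkv3-1) in the non-GC libraries. Only 1 of the 31 items had shares that did not overlap between cell types. That item was Igkv1-135, with 4.75% to 6.35% in the 4 non-GC libraries and 0% to 3.905% in the 4 GC libraries. Shares exist for Igkv items alone, so this count has no value over all genes beside it. How often shares in 4 against 4 libraries separate by chance was not tested, so Igkv1-135 is not shown to stand out. The 1% limit was set after the values were seen, and GC libraries had fewer reads, whose part in the wider ranges was not tested.

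**Figure D4:**
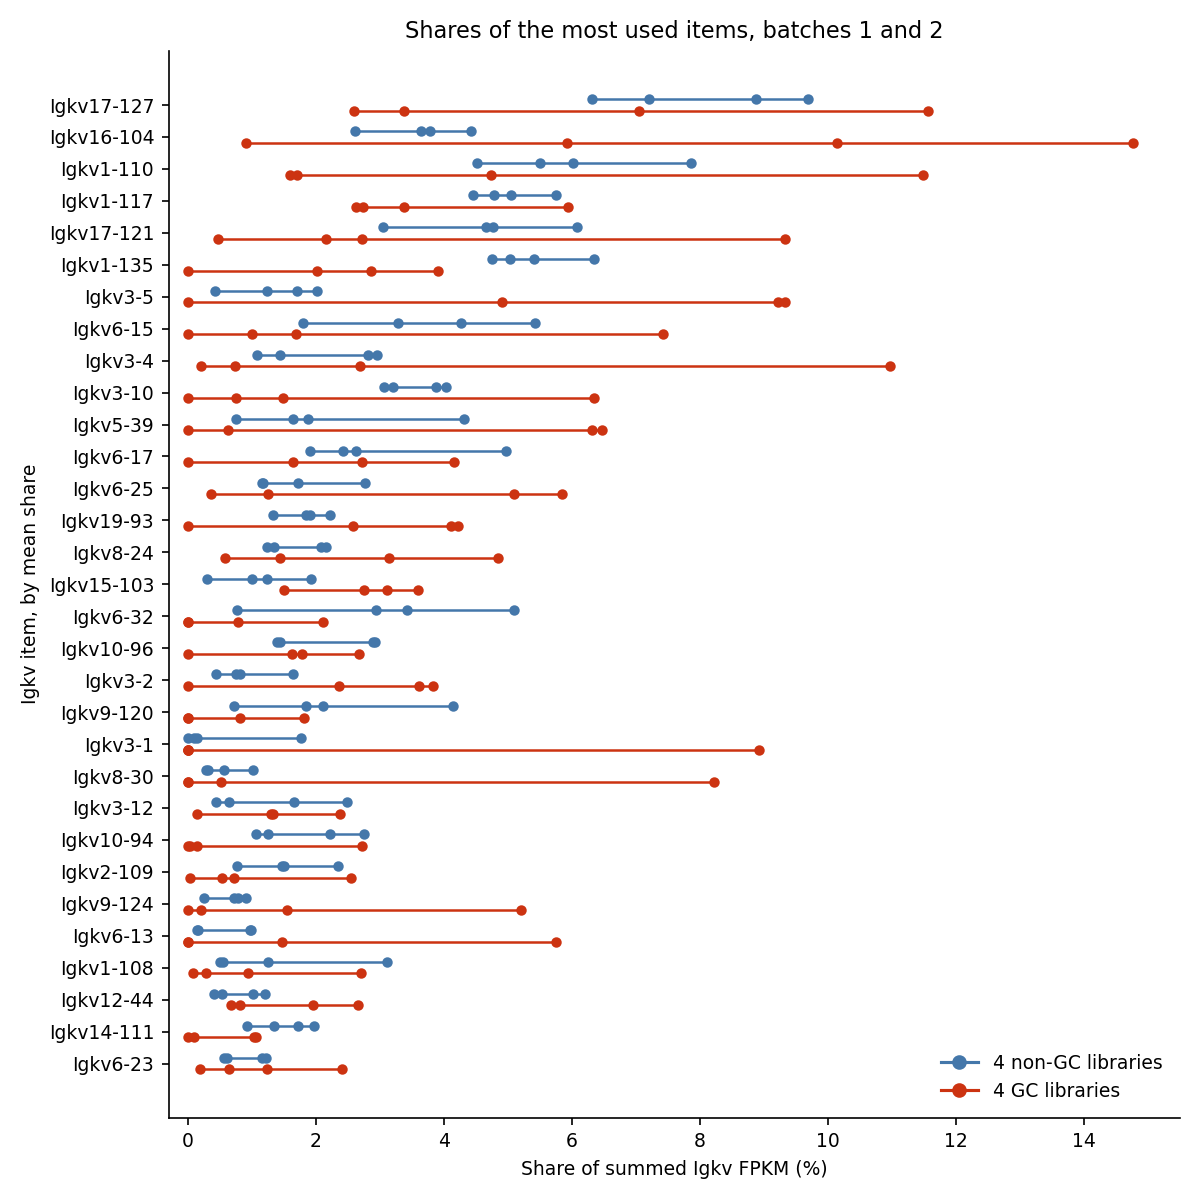
Shares of the 31 items with a mean of at least 1% over batches 1 and 2 (x axis, %), with a point for each of 4 non-GC (blue) and 4 GC (red) libraries and a line from lowest to highest. The GC line is the longer one for 29 of the 31 items.

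The overlap of usage between libraries, the sum over items of the smaller of both shares, was 66.1% to 77.2% (median 69.2%) for the 6 pairs of non-GC libraries of batches 1 and 2. It was 29.5% to 51.1% (median 37.1%) for the 6 pairs of GC libraries, and 35.6% to 61.6% (median 49.2%) for the 16 mixed pairs. All 6 non-GC values lay above all 6 GC values, also where the 2 libraries differed in genotype and batch. The part of the lower number of Igkv reads in GC libraries was not tested. These values describe pairs that share libraries, and no test was made on them.

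Batch 3 was led by other segments than batches 1 and 2, although of the 38 items above 0 in it only 2 were listed at 0 in all 8 libraries of batches 1 and 2. Its largest items were Igkv8-19 in Sle1b non-GC (16.0%), Igkv4-50 in Sle1b GC (29.7%), Igkv3-10 in non-GC (15.7%) and Igkv3-4 in GC labelled Ifnar1KO (38.4%). Igkv8-19 held at most 0.89% and Igkv4-50 at most 1.33% in any library of batches 1 and 2, whereas Igkv3-4 reached 10.97% and Igkv3-10 6.35% there. Igkv7-33 was listed at 0 in all 8 libraries of batches 1 and 2 and held 14.1% and 21.1% in the non-GC and GC libraries of batch 3 labelled Ifnar1KO. Of the 31 items most used in batches 1 and 2, 17 were listed at 0 in all 4 libraries of batch 3. Overlap of non-GC libraries with those of batch 3, or between them, was 10.1% to 24.6%. Its GC libraries had an estimated 34.9 and 47.8 Igkv reads, so the share of an item there rests on few reads.

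The test across genes was made on 14607 items of the series, 89 of them Igkv, with limma on log2(FPKM + 1) and the batch as a block. For GC against non-GC cells in Sle1b it called 0 of 89 Igkv items at an adjusted p under 0.05, where 0% of all items was called. At an unadjusted p under 0.05, 14 Igkv items were lower and 0 higher, against 5.55% lower and 3.95% higher of all items. The difference was below 0 for 71 of the 89, with a median of -0.76, against -0.11 over all items tested. Centred libraries gave 13 lower and 1 higher with a median of -0.63 against 0.02, and 8 or 7 were lower without Sle1b GC replicate 1 or 2. In libraries labelled Ifnar1KO 0 of 89 Igkv items were called (0.00685% of all items were). At an unadjusted p under 0.05, 27 were lower and 0 higher there, against 10.1% lower and 2.22% higher of all items. The difference was below 0 for 79 of the 89, with a median of -1.19 against -0.39. With each library centred on the median of all items, 15 Igkv items were lower and 2 higher (485 and 909 of all items), with a median of -0.73 against 0.07. The count of lower items was 14 without non-GC replicate 1 and 15 without GC replicate 1 labelled Ifnar1KO. In 11 items of Sle1b and 30 of those labelled Ifnar1KO the GC group was listed at 0 throughout, so the fitted size for these depends on the pseudocount of 1 FPKM. Such items passed the filter through other libraries and could not be higher in GC. Among items with an unadjusted p under 0.05, 14 of 27 in libraries labelled Ifnar1KO and 3 of 14 in Sle1b had a group listed at 0. The counts of lower and higher items therefore rest in part on items whose direction was fixed.

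**Figure D5:**
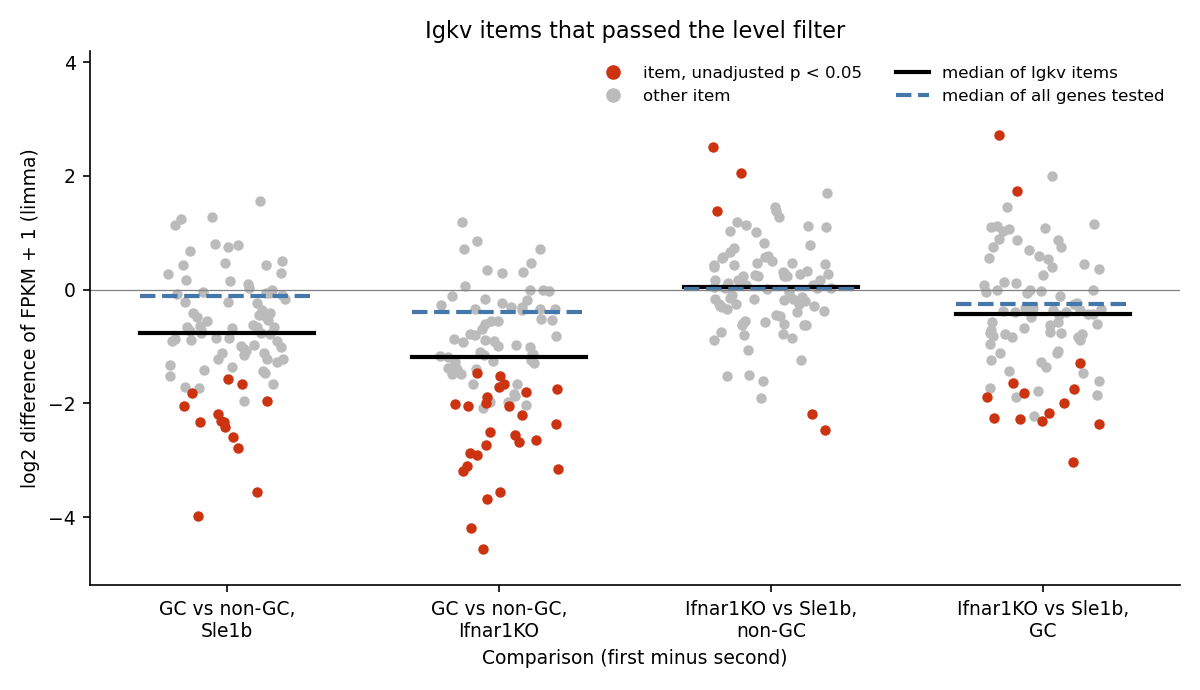
Fitted limma log2 difference of FPKM + 1 (y axis) for 89 Igkv items in 4 comparisons, with red points for an unadjusted p under 0.05, a black bar for their median and a dashed blue bar for the median of 14607 items. For GC against non-GC cells the Igkv medians are -0.76 and -1.19, and between genotypes they are 0.04 in non-GC and -0.43 in GC cells.

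Single segments were lower in every pair. Igkv1-135 had 86.0, 49.8 and 14.9 FPKM in Sle1b non-GC and 42.7, 15.7 and 0 FPKM in Sle1b GC, and 161, 42.7 and 13.0 FPKM in non-GC and 15.5, 0 and 0 FPKM in GC labelled Ifnar1KO. The GC value was the lower one in 6 of 6 pairs. The limma difference was -2.19 (SE 0.74, adjusted p = 0.448) in Sle1b and -4.18 (SE 0.74, adjusted p = 0.208) in libraries labelled Ifnar1KO, and neither passed. Igkv3-10 had 55.4, 39.9 and 1.12 FPKM in Sle1b non-GC and 16.3, 34.9 and 0 FPKM in Sle1b GC, and 98.6, 25.3 and 32.6 FPKM in non-GC and 5.81, 0 and 0 FPKM in GC labelled Ifnar1KO. Igkv3-10 was also lower in all 6 pairs (limma -4.55, SE 0.95, adjusted p = 0.324 in libraries labelled Ifnar1KO). Its close relative Igkv3-5 was lower in GC in 3 pairs and higher in 2. The share of Igkv3-5 in batches 1 and 2 was 0.43% to 2.02% in non-GC and 0% to 9.32% in GC libraries. How reads were split between Igkv3-10 and Igkv3-5 was not tested. In all, 6 of the 89 items were lower in GC in all 6 pairs (Igkv1-135, Igkv2-109, Igkv1-108, Igkv13-82, Igkv6-15 and Igkv3-10) and 0 were higher, while 5.82% of all items tested were lower and 1.02% higher, so the share among Igkv items is near that of all items for the lower direction. This count was added after the values were seen. Within Sle1b alone, 13 items were lower in GC in all 3 batches (14.2% of all items were) and 0 higher (8.02%), and in libraries labelled Ifnar1KO 9 were lower (19.2%) and 0 higher (3.86%).

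The smallest p in Sle1b belonged to Igkv4-53 and Igkv14-100. Igkv4-53 had 13.7, 7.44 and 31.2 FPKM in non-GC and was listed at 0 in all 3 GC libraries (limma adjusted p = 0.309). Igkv14-100 had 13.0, 5.15 and 18.3 FPKM in non-GC and was likewise listed at 0 in GC (limma adjusted p = 0.403). Of the 89 Igkv items tested, 11 were listed at 0 in all 3 Sle1b GC libraries. Both segments were picked for their small p, and neither passed the test. The items with the smallest p in the higher direction were Igkv9-129, Igkv3-1 and Igkv2-113 in Sle1b, and Igkv5-45, Igkv3-9 and Igkv15-103 in libraries labelled Ifnar1KO. Igkv9-129 reached 4.58 FPKM at most, and none of the 6 was higher in GC in all 3 batches.

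When batch 3 was left out and the level filter redone on 8 libraries, which was decided after the values were seen, 3 of 86 Igkv items were called, where 0.31% of 12257 items was called. All 3 had the lower level in the GC libraries labelled Ifnar1KO. Igkv1-110 had 140 and 62.1 FPKM in non-GC and 13.2 and 5.27 FPKM in GC libraries 1 and 2 (limma log2 difference -3.32, SE 0.49, adjusted p = 0.0470). Igkv3-7 had 34.3 and 10.9 FPKM and Igkv9-120 had 47.0 and 32.7 FPKM in non-GC libraries 1 and 2 labelled Ifnar1KO. Both were listed at 0 in GC libraries 1 and 2 with that label (limma adjusted p = 0.0470 and 0.0439). Neither could therefore be higher in GC there, and the fitted sizes and p-values depend on the pseudocount of 1 FPKM. In Sle1b GC libraries 1 and 2 both items were above 0, at a lower level than in the matching non-GC library. In Sle1b, Igkv1-110 went from 81.8 to 126 FPKM in batch 1 and from 59.5 to 26.0 FPKM in batch 2, so its direction was mixed there. With batch 3 left out and the filter kept as set on 12 libraries, 0 Igkv items were called. The other 4 contrasts called 0 Igkv items in these 8 libraries, while 0.0571% of all items was called for GC against non-GC cells in Sle1b and 0.00816% between genotypes in GC cells.

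Between genotypes, no Igkv item was called in either cell type. In non-GC cells, 0 of 89 items passed, 2 were lower and 3 higher at an unadjusted p under 0.05 in libraries labelled Ifnar1KO, and 0.863% and 0.801% of all items were. The median difference was 0.04, against 0.01 over all items. Igkv1-88 was listed at 0 in all 3 Sle1b non-GC libraries and had 6.88, 0 and 22.2 FPKM in those labelled Ifnar1KO (limma adjusted p = 1). Igkv4-53 had 13.7, 7.44 and 31.2 FPKM in Sle1b and 9.57, 1.21 and 0 FPKM in those labelled Ifnar1KO (limma -2.47, SE 0.88, adjusted p = 1). Igkv4-53 was lower in all 3 batches, and its groups overlapped. In all 3 batches, 2 items were lower (6.44% of all items were) and 2 higher (10.8%).

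In GC cells, 0 of 89 items passed, and 12 were lower and 2 higher at an unadjusted p under 0.05 in libraries labelled Ifnar1KO, against 5.31% lower and 1.25% higher of all items. Of the 14 Igkv items with such a p, 7 had a group listed at 0 in all 3 libraries, which fixed their direction. The median was -0.43, against -0.25 over all items. With each library centred on the median of all items, which moved the median of all items to 0.13, 1 Igkv item was lower and 5 were higher, with a median of -0.05. The count of lower items was 3 without GC replicate 1 labelled Ifnar1KO (3 higher), 4 and 3 without Sle1b GC replicate 1 or 2, 5 without GC replicate 2 and 21 without GC replicate 3 labelled Ifnar1KO. Igkv6-13 had 16.0, 31.7 and 0 FPKM in Sle1b GC and was listed at 0 in all 3 GC libraries labelled Ifnar1KO (limma adjusted p = 0.741). Igkv6-14 was listed at 0 in Sle1b GC and had 0, 18.3 and 13.5 FPKM in those labelled Ifnar1KO (limma adjusted p = 0.741). Igkv5-45 had 1.31, 0 and 0 FPKM in Sle1b and 9.09, 7.55 and 0 FPKM in libraries labelled Ifnar1KO (limma 1.74, SE 0.69, adjusted p = 0.741). In all 3 batches, 2 items were lower (12.7% of all items were) and 0 higher (3.05%). None of these groups differed beyond the spread between replicates at the adjusted threshold.

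Of the library measures, none passed between genotypes as computed from FPKM shares. With FPKM weighted by locus length, the effective number was lower in libraries labelled Ifnar1KO by -7.84 and the largest share higher by 13.1 points (both exact permutation p = 0.03125). In that weighting Igkv2-137, with a locus of 24272 bp against a median of 535 bp, took up to 41.8% and led 6 libraries. Its part in these 2 differences was not tested. The summed level was lower in libraries labelled Ifnar1KO in 5 of 6 pairs, by a mean of -0.37 on the log2 scale (SD 0.45; exact permutation p = 0.125). The effective number was lower in 5 of 6 pairs, by -1.69 (SD 2.29; p = 0.156 in the exact permutation test), and the largest share higher in 3 of 6 pairs, by 1.73 points (SD 4.33; exact permutation p = 0.469). Whether the difference between GC and non-GC cells itself differed between genotypes was tested over 3 batches, where the smallest possible p is 0.25. The difference of differences was -2.18 for the effective number (exact permutation p = 0.5) and 5.99 points for the largest share (exact permutation p = 0.25). Across genes, the interaction was called for 0 of 89 Igkv items and 0% of all items, with 9 lower and 2 higher at an unadjusted p under 0.05, against 3.05% and 0.698% of all items.

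Position along the array was compared as the share of the 79 items nearest the J segments. This J-proximal share was 44.4%, 39.7% and 65.2% in Sle1b non-GC and 45.2%, 56.5% and 39.6% in Sle1b GC. With the label Ifnar1KO it was 43.6%, 38.5% and 58.4% in non-GC and 48.7%, 51.4% and 94.3% in GC cells. It was higher in GC in 5 of 6 pairs, by 7.68 points on average (SD 20.4; exact permutation p = 0.406), which is within the spread between pairs. Between genotypes the mean difference was 7.36 points (SD 23.5; exact permutation p = 0.875), with 2 of 6 pairs higher in libraries labelled Ifnar1KO.

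Among sequence families, Igkv1, Igkv6, Igkv17 and Igkv3 led the non-GC libraries of batches 1 and 2. Family Igkv1 held 14.9%, 19.2% and 11.4% in Sle1b non-GC and 22.04%, 12.5% and 0.63% in Sle1b GC. The same family held 19.5%, 21.3% and 17.4% in non-GC and 13.4%, 6.92% and 0% in GC cells labelled Ifnar1KO. It was lower in GC in 5 of 6 pairs (exact permutation p = 0.125, adjusted 0.6 over 16 families). Family Igkv13 was the single family lower in GC in 6 of 6 pairs, with means of 0.563% in GC and 3.84% in non-GC cells (exact permutation p = 0.03125, adjusted 0.5), and none of the 16 families passed in this comparison after adjustment. With 6 pairs and 16 families the smallest adjusted p that a single family can reach is 0.5.

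Transcripts of annotated pseudogenes, which cannot encode a chain, took part of the total. Their share was 2.93%, 11.1% and 9.25% in Sle1b non-GC and 1.00%, 6.61% and 40.7% in Sle1b GC. In libraries labelled Ifnar1KO it was 2.38%, 9.71% and 25.6% in non-GC and 1.28%, 7.15% and 2.68% in GC cells. It was lower in GC in 5 of 6 pairs (exact permutation p = 0.969), and batch 1 was lower than batch 2 in each group. The value of 40.7% came from Igkv2-113 (22.5%) and Igkv4-77 (14.9%), which held at most 0.665% in any library of batches 1 and 2. Igkv13-82 was above 0 in 11 of 12 libraries, as were Igkv1-108 and Igkv4-56, which were singled out after their values were seen, and the functional gene Igkv2-109 was the 1 item above 0 in all 12.

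Other light chain genes were set beside the segments. Of 15 kappa locus partners (Igkc, the Igkj segments and lambda genes), 9 were tested, all 9 were below 0 for GC against non-GC cells in both genotypes (55.7% and 67.8% of all items were), and the medians were -1.17 and -2.52. The lambda constant gene Iglc4, listed at 0 in all 6 GC libraries and between 8.94 and 48.5 FPKM in all 6 non-GC libraries, was the 1 partner called, in libraries labelled Ifnar1KO (limma adjusted p = 0.00765), and had an adjusted p of 0.065 in Sle1b. Iglc4 passed the level filter through non-GC libraries alone, so it could not be higher in GC, and its fitted size depends on the pseudocount. Igkj5 was the 1 Igkj segment above 0, at 0.60 to 154 FPKM. Of 28 kappa transcription and rearrangement genes, 27 were found and 24 tested, and 0 were called in the 4 comparisons of 2 groups, with 3 higher and 3 lower in Sle1b GC at an unadjusted p under 0.05 (3.95% and 5.55% of all items were) and 2 higher and 2 lower in GC labelled Ifnar1KO (2.22% and 10.1%). Rag2, a subunit of the recombinase, stayed at or below 2.55 FPKM in all 12 libraries.

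Markers of other cell types were set beside these levels. Of 15 plasma cell genes found, the sum lay between 157 and 200.3 FPKM for non-GC and between 160 and 326 FPKM for GC libraries of batches 1 and 2, and 9.38 to 23.5 FPKM in batch 3. Among these 15 genes, 5 (Prdm1, Igj, Creld2, Derl3 and Slamf7) were higher in GC in all 4 pairs of batches 1 and 2 and 1 (Irf4) was lower in all 4. The share of all items with the same direction in these 4 pairs was not counted, so neither number is shown to stand out. Slamf7 had the highest value of these 5, 94.5 FPKM in Sle1b GC library 1 against 9.58 FPKM in the matching non-GC library. Sdc1 was at most 3.9 FPKM, Tnfrsf17 at most 0.64 FPKM, Prdm1 at most 7.42 FPKM and Xbp1 at most 23.5 FPKM. Igj, the joining chain, lay between 0.19 and 5.65 FPKM in non-GC and between 14.0 and 48.3 FPKM in GC libraries of batches 1 and 2, higher in GC in all 4 pairs, whereas the Igkv sum was lower there. T cell markers summed to 10.2 to 53.1 FPKM in batches 1 and 2. In the GC libraries of batch 3 they summed to 76.1 FPKM in Sle1b and 26.8 FPKM with the label Ifnar1KO. The B cell markers summed to 15.8 and 22.02 FPKM there, so these sums do not show a B cell majority. In the non-GC libraries of batch 3 the T cell sums were 6.74 and 8.09 FPKM, against B cell sums of 153 and 142 FPKM. The lists hold 10 T cell and 6 B cell genes. Plasmacytoid dendritic cell markers summed to at most 89.9 FPKM, of which 87.9 FPKM was Tcf4, a gene that the kappa transcription list also holds, while Siglech was at 0.21 FPKM, Bst2 at 0.97 FPKM and Klk1 and Cox6a2 at 0 in that library. Myeloid markers summed to at most 169 FPKM and erythroid markers to at most 78.7 FPKM, and all 3 maxima were in Sle1b GC library 1. The part of these cells in the Igkv values was not tested.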

How the data were processed

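RNA of sorted B cells was amplified with SMARTer Ultra Low reagents, and Nextera XT served for library preparation, per the labels' protocols. The submitters' processing notes name CASAVA, Bowtie2 2.1.0, TopHat2 2.0.9, Cufflinks 2.2.1, Cuffdiff and the builds GRCm38 and mm10. The deposited FPKM values stand in 17 Cuffdiff tables, per the file headers, each of which compares 2 libraries of 1 batch. The batch is named with the tables and equals the replicate number. A direct table of Sle1b non-GC against GC cells of batch 1 was not used here. Columns of 1 library differed between tables by a constant scale (at least 99.98% of values within 0.01 on the log2 scale), so the levels were joined per batch by least squares.

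Of 43622 named items, 9 with a failed status were left out, and 14607 that reached 1 FPKM or more in 3 or more of the 12 libraries were tested with limma 3.58.1 (R 4.3.3) on log2(FPKM + 1), with a mean-variance trend, batch as a block and Benjamini-Hochberg adjustment. The fit was tested on simulated data. Library measures were tested by exact two-sided permutation within pairs. Igkv reads were estimated from the step between low FPKM values. Of 205 low Igkv values, 155 (75.6%) came out whole within 0.15 read. The offset taken from transcript length, 166 nt, was chosen to make this fraction largest, so the fraction is not a separate check. The estimated numbers of reads are approximate. Sequences were aligned with Biopython 1.88. The members, gene lists and rules were chosen with earlier results of these data known. Named items were the 10 with the highest mean share, the largest item of each library, items with at least 10% in a library, and the 3 items of smallest limma p in each direction of 4 comparisons. The alternatives varied the pseudocount, filter, scaling, block, weighting, batches and libraries.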

Additional observations from a re-analysis of the deposited data

Results flagged for a closer look

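The difference between the library labelled Ifnar1KO and the Sle1b library of the same batch had opposite signs in both cell types for Igkv13-82, an annotated pseudogene. On the log2(FPKM + 1) scale it was 0.34, 0.57 and 2.15 in non-GC batches 1, 2 and 3 (mean 1.02) and -1.71, -1.18 and -0.97 in GC batches 1, 2 and 3 (mean -1.29). The limma interaction was -2.31 (SE 0.78, adjusted p = 0.992) and did not pass.

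The largest share differed in the same way. It was lower in the non-GC libraries labelled Ifnar1KO by -2.48, -1.01 and -0.29 percentage points (mean -1.262) and higher in the GC libraries by 0.08, 5.44 and 8.65 points (mean 4.72). The interaction gave an exact permutation p of 0.25, the smallest that 3 batches allow.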

How the results depend on the processing

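For GC against non-GC cells, the summed level, effective number and largest share kept their direction in all alternatives. Leaving out batch 1, 2 or 3 left 4 pairs, for which the smallest exact permutation p is 0.125. The summed level then differed by -1.76, -1.85 and -1.14, the effective number by -9.21, -9.33 and -11.6, and the largest share by 10.9, 10.6 and 3.37 points. With the direct tables alone the summed level differed by -1.78 over 5 pairs (exact permutation p = 0.0625). Leaving out 1 library with its pair gave -1.75 to -1.38 for the summed level, -10.7 to -9.25 for the effective number, 5.44 to 9.88 points for the largest share and 2.04 to 14.3 points for the J-proximal share. Here too 5 pairs cannot go below 0.0625.

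With FPKM weighted by locus length, the GC difference was -2.56 for the effective number (exact permutation p = 0.281) and 2.51 points for the largest share (exact permutation p = 0.625). The genotype difference was then -7.84 for the effective number and 13.1 points for the largest share (both exact permutation p = 0.03125), and -1.11 points for the J-proximal share. In that weighting Igkv2-137, with a locus of 24272 bp against a median of 535 bp, took 0% to 41.8% and was the largest item of 6 libraries. Between genotypes, the largest share differed by -1.02 points over functional items, and the J-proximal share by -0.90 points without batch 3 and by -2.10 to 10.2 points with 1 library left out. The cause was not tested.

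The limma fit called 0 Igkv items in all alternatives for each contrast, no replicate block included, except 3 items with batches 1 and 2 alone and the filter redone. Of 564 values of 24 named differences, 559 kept their sign. Leaving out items with another name gives no separate value, since 0 items carry one. The GC libraries of batch 3 had the fewest Igkv reads, 34.9 and 47.8, at summed levels of 54.7 and 39.4 FPKM, whereas 1 read was worth most, 2.12 FPKM, in GC library 2 labelled Ifnar1KO.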
